A study of Mus musculus with 4 samples.

Results

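Measured here were 32 genes that build, modify and export the lipids of the epidermal permeability barrier, chosen by name as genes of ceramide synthesis and processing, the lipoxygenase route and lipid transport. All 32 were found among the 56953 genes counted in mouse skin, and 30 had enough reads to be tested. Skin of the back was taken from C57BL/6J mice of wild type genotype that had been treated on the surface for 3 days. In one group the agent was NEDD8i at 10 µM, known only by this code, which refers to the ubiquitin-like protein NEDD8, and in the other it was DMSO, the solvent control. Each group had 2 libraries of a 3′ tag method that gives reads at the end of a transcript, whatever its length. The labels give neither the age or sex of the mice nor whether the 2 replicates of a group were separate animals. The p-values therefore set a difference between groups only against the spread between these samples, and that spread may be technical.

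The outermost epidermis keeps water in with layers of lipid, made of ceramides, cholesterol and free fatty acids between dead, flattened cells. Ceramides join a sphingoid base to a fatty acid, and keratinocytes lengthen that fatty acid to ultra-long chains, hydroxylate its end and esterify it with linoleic acid to give acylceramides. Lipoxygenases then oxidise the linoleic acid, which allows the lipid to be bound to the protein envelope of the cell. Glucosylceramides and sphingomyelins are packed into lamellar granules and turned back into ceramides once secreted. Loss of several of these genes causes ichthyosis in humans or lethal water loss in newborn mice.

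Total counts were 8856572 and 8833217 in NEDD8i replicates 1 and 2, against 5955627 and 5639791 in DMSO replicates 1 and 2, and 3 ribosomal RNA genes took 52.6% to 61.7% of them. Levels are CPM, read counts brought to a common library size with TMM factors, and differences are log2 fold changes of NEDD8i over DMSO from edgeR's quasi-likelihood test over 11388 genes, each with its standard error (SE). The keratinocyte markers of the tissue were abundant, since spinous markers summed to 6128 and 5649 CPM in NEDD8i against 5567 and 9451 CPM in DMSO. The labels speak of full-thickness skin, but the 4 endothelial markers summed to 6 and 14 counts in NEDD8i against 3 and 2 in DMSO, with Cdh5 at 0 in all 4 libraries. The 6 dermal fibroblast markers summed to 29.6 and 64.2 CPM in NEDD8i against 54.7 and 6.52 CPM in DMSO. Of the 4 tested, 3 (Col1a1, Col1a2 and Col3a1) had a positive log2 fold change at an unadjusted p under 0.05, as had 8.62% of all tested genes. In edgeR 0 of them passed the adjusted threshold. Col3a1 had 19 and 83 counts in NEDD8i against 7 and 2 in DMSO. It entered the test through its NEDD8i libraries alone, so its sign and p-value lend no support. Hair shaft and inner root sheath markers set DMSO replicate 1 apart, with 15.9 and 421 CPM in NEDD8i replicates 1 and 2 against 6678 and 18.8 CPM in DMSO replicates 1 and 2. In bulk tissue, fewer cells of a type and less RNA per cell cannot be told apart.

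Of the 30 tested barrier lipid genes, edgeR's test called 0 at a Benjamini-Hochberg adjusted p of 0.05, while it called 0.782% of all tested genes, 0.667% as higher and 0.114% as lower. DESeq2 called 1 (Cers2), beside 3.64% of all tested genes, and limma-voom called 0, beside 0.562%. At an unadjusted p under 0.05 there were 12 of 30 (40%, 9 with a positive and 3 with a negative log2 fold change), against 16.5% of all tested genes, 8.62% positive and 7.86% negative. A positive log2 fold change was seen for 17 of 30, against 49.9% of all tested genes. The median log2 fold change of the 30 genes was 0.32, against 0.00 over all genes, and their values ran from -1.19 for Smpd1 to 2.24 for Degs2. Both NEDD8i libraries lay above both DMSO libraries for 13 genes (25% of all tested genes did so) and below them for 4 (22.9% of all). In all 4 libraries 28 of the 30 genes passed the filter's level of 1.35 CPM. Degs2 entered the test through its NEDD8i libraries alone and Lipk through its DMSO libraries alone. Both are included in the counts above, to which their signs and separation lend no support.

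**Figure D1:**
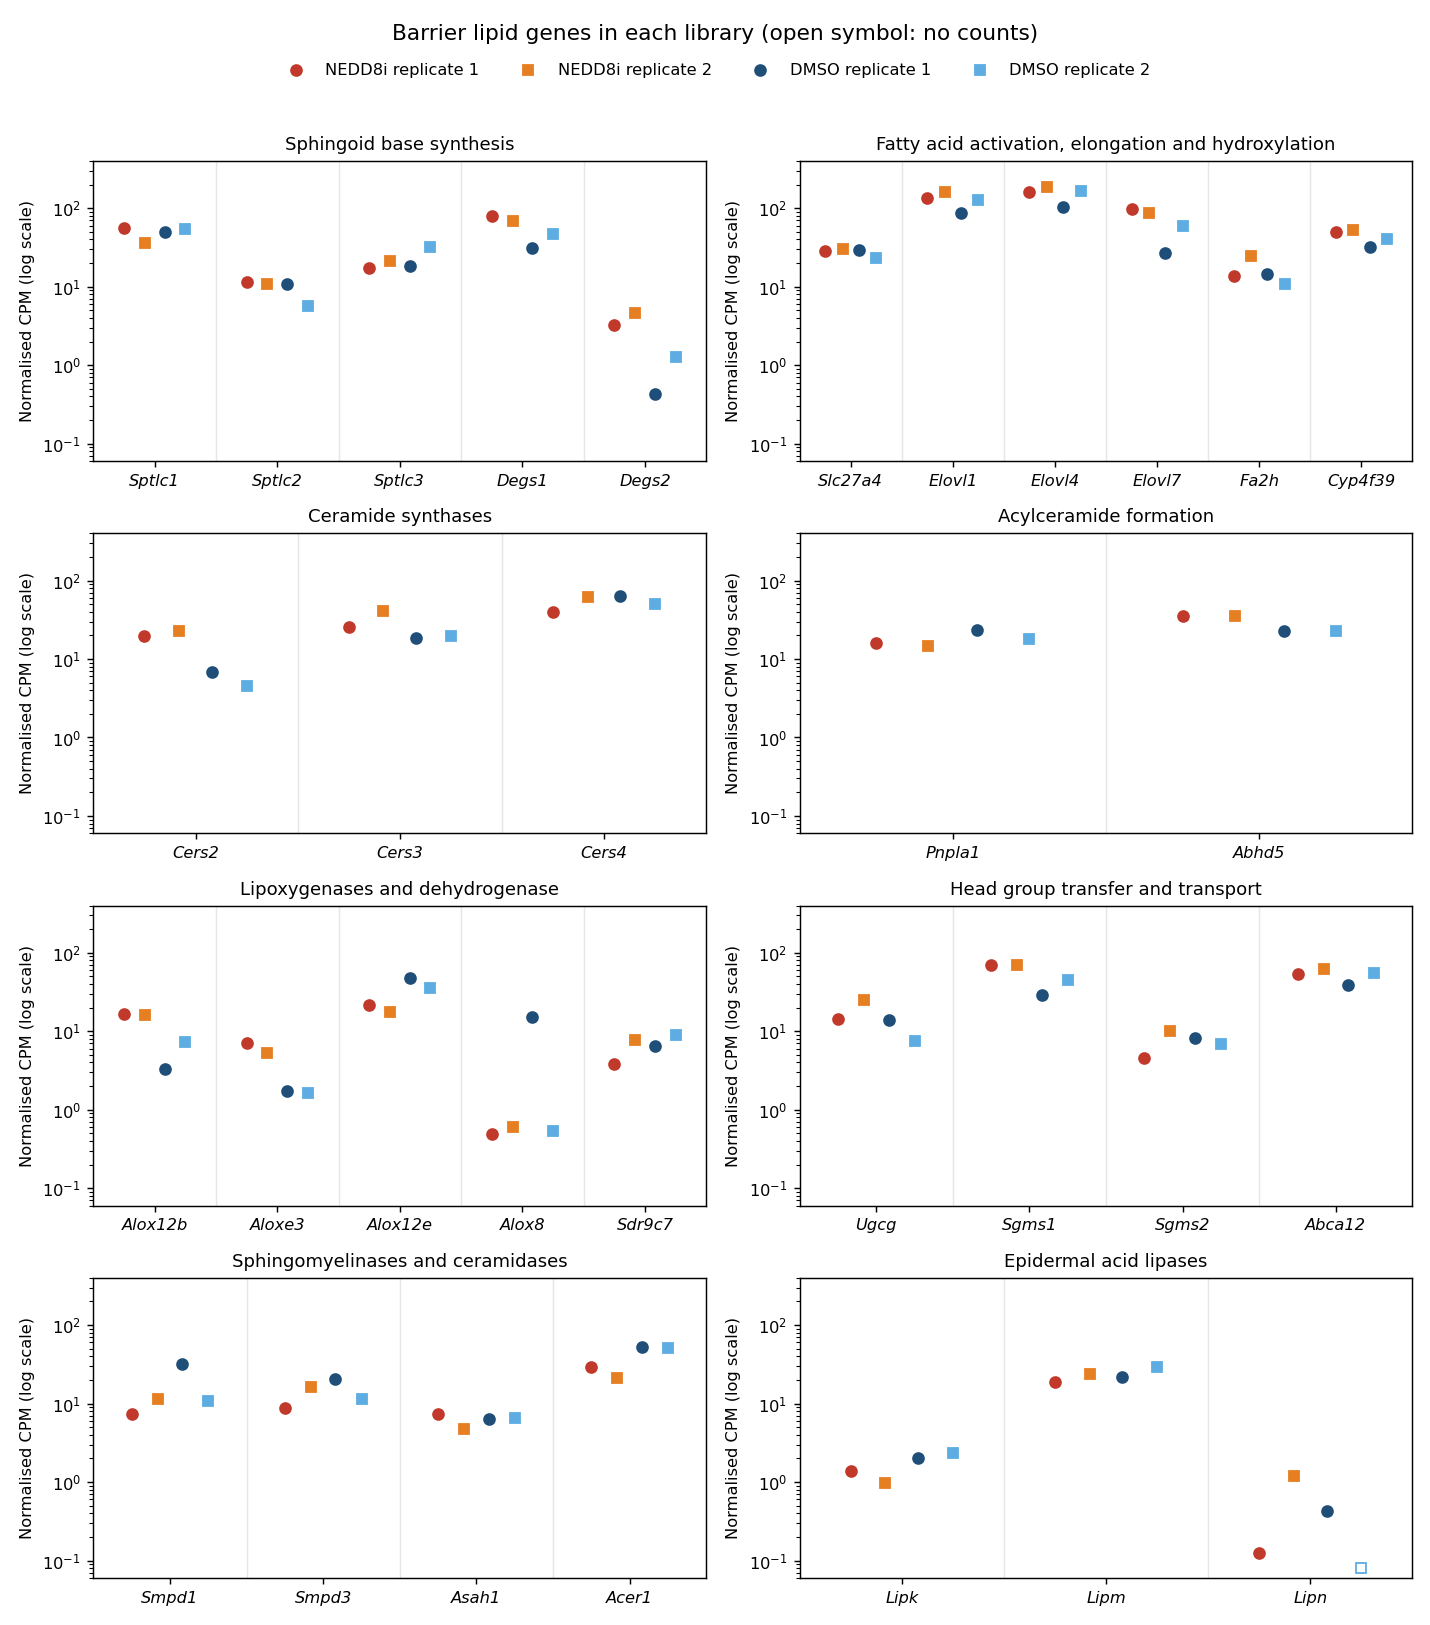
Scaled CPM of the 32 barrier lipid genes in each of the 4 libraries, on a log axis, in 8 panels by role; 1 symbol is 1 library and an open symbol marks 0 counts. Cers2, Alox12b and Aloxe3 sit higher in both NEDD8i libraries than in both DMSO libraries, Alox12e and Acer1 sit lower, and Alox8 is high in DMSO replicate 1 alone.

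The sequences upstream of 4 genes are shown because these carry the smallest p-values of the genes that have an entry in the promoter table used, 2 of them (Alox12b and Cers2) with higher and 2 (Alox12e and Acer1) with lower levels after NEDD8i. Each runs from 250 bases before to 50 bases after a transcript start in RefSeq on GRCm38.p6, read 5′ to 3′ on the gene's strand. Capitals mark CACCC on either strand, the core letters of sites bound by KLF factors, of which Klf4 drives barrier formation in mouse epidermis.
Alox12b, chr11:69156822-69157121, plus strand: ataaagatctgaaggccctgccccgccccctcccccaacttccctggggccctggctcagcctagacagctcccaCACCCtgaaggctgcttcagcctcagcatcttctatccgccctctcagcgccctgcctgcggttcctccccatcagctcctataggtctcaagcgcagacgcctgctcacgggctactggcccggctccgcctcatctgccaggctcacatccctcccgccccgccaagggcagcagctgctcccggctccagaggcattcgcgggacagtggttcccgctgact
Cers2, chr3:95314940-95315239, plus strand, the first of its 2 listed starts: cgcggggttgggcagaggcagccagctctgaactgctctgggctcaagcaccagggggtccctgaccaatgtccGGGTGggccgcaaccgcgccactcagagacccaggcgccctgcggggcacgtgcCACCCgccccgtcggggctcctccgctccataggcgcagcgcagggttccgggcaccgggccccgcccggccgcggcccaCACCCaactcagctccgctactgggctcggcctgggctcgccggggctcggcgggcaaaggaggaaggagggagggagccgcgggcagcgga
Alox12e, chr11:70322481-70322780, minus strand: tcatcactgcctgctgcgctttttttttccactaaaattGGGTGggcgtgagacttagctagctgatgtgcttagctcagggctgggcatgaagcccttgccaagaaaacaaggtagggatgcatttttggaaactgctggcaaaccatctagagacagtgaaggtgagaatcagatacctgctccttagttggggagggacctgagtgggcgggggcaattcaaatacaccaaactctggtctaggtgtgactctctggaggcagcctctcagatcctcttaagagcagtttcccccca
Acer1, chr17:56982077-56982376, minus strand: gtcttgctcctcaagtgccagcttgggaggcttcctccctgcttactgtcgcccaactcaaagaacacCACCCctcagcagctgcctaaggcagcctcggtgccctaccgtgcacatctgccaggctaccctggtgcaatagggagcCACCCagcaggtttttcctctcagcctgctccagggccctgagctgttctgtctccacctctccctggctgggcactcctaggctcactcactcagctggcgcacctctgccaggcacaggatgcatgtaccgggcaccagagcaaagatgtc

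Promoter entries were found for 27 of the 32 genes, 37 starts in all, and 25 of these starts (67.6%) held CACCC or its reverse complement, against 57.5% of 32851 mouse promoters of the same length. The AP-1 letters TGANTCA stood in 4 of the 37 (10.8%), against 7.81% of all, and the grainyhead-like letters AACCNGTT in 1 (2.7%), against 2.09%. Neither stood in the 4 windows shown. These are matches of letters on both strands, not measured sites.

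Ceramide backbones begin with serine palmitoyltransferase, whose subunits are encoded by Sptlc1, Sptlc2 and Sptlc3, and none of the 3 separated the groups clearly. Sptlc1 had 55.6 and 36.5 CPM in NEDD8i against 49.7 and 54.9 CPM in DMSO, and Sptlc3 had 17.3 and 21.1 against 18.2 and 32.1 CPM. Sptlc2, with 11.5 and 10.9 CPM in NEDD8i against 10.9 and 5.61 CPM in DMSO, did not overlap, but by a margin far smaller than the gap between its DMSO libraries. Their log2 fold changes were -0.18, -0.38 and 0.44 for Sptlc1, Sptlc3 and Sptlc2. The sign turned without NEDD8i replicate 2 for Sptlc1 (0.075) and without DMSO replicate 2 for Sptlc3 (0.10).

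The desaturases that finish the backbone were both higher in the NEDD8i libraries without passing the test. Degs1 (ENSMUSG00000038633.6, chromosome 1, 182103337 to 182110369, minus strand), which puts the double bond into dihydroceramide, had 80.6 and 69.1 CPM in NEDD8i against 31.3 and 47.6 CPM in DMSO. Its log2 fold change was estimated at 0.92 ± 0.31 (SE, edgeR adjusted p = 0.189, a missed threshold). Degs2 (ENSMUSG00000021263.12, chromosome 12, 108654498 to 108668570, minus strand), which hydroxylates the base to give the phytoceramides typical of skin, had 26 and 39 counts in NEDD8i against 3 and 7 in DMSO, or 3.23 and 4.69 against 0.429 and 1.27 CPM. Every NEDD8i value of both genes lay above every DMSO value. For Degs2 this carries no weight, since it was tested only through its NEDD8i libraries. Degs2 stood at 2.24 ± 0.72 log2 units (SE, edgeR adjusted p = 0.177), also short of the threshold, and its exons overlap those of Evl on the other strand, which had 3 and 19 counts in NEDD8i against 30 and 5 in DMSO. Without DMSO replicate 2, Degs1 was called at 1.28 (edgeR adjusted p = 0.00646). Degs2 was called there too, but it entered the test only through its NEDD8i libraries, where it is high, and its 1 remaining DMSO library had 3 counts, so that call supports nothing.

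Genes that prepare the fatty acid all had a positive log2 fold change, 6 of 6 tested, beside 49.9% of all tested genes, and 0 passed. The largest was that of Elovl7 (ENSMUSG00000021696.10, chromosome 13, 108350938 to 108422217, plus strand), an elongase of saturated fatty acids, with 98.6 and 86.6 CPM in NEDD8i against 26.7 and 58.9 CPM in DMSO. The groups did not overlap, although the DMSO libraries differed from each other more than the NEDD8i libraries did. In the fit it stood at 1.12 ± 0.39 on the log2 scale (SE, edgeR adjusted p = 0.199), and without DMSO replicate 2 it was 1.81 and called (edgeR adjusted p = 5.08e-05). Elovl4, which makes the ultra-long chains of acylceramides, overlapped between groups, with 161 and 185 CPM in NEDD8i against 103 and 166 CPM in DMSO. Elovl1, which supplies its very-long-chain substrates, had 134.6 and 162 CPM in NEDD8i against 86.8 and 128 CPM in DMSO, a log2 fold change of 0.46 beside 0.36 for Elovl4. Both of those elongases were lowest in DMSO replicate 1, and exons of Elovl1 overlap those of Cdc20 on the other strand, which had 146 and 256 counts in NEDD8i against 129 and 121 in DMSO.

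Cyp4f39, the mouse hydroxylase that acts on the far end of the ultra-long chain, had 49.4 and 52.9 CPM in NEDD8i against 32.3 and 40.6 CPM in DMSO (log2 fold change 0.49). Fa2h, which hydroxylates the second carbon of the chain, stood at 13.8 and 24.9 CPM in NEDD8i against 14.6 and 10.9 CPM in DMSO (log2 fold change 0.60). NEDD8i replicate 2 alone set it apart. That library was also highest for the summed sebaceous gland markers, at 99.7 and 136 CPM in NEDD8i against 109 and 70.1 CPM in DMSO, with all 8 listed markers detected, and the part of the gland in this value was not tested. Slc27a4, a fatty acid transporter that activates fatty acids to their CoA esters, was nearly even, with 28.3 and 30.4 CPM in NEDD8i against 29.4 and 23.5 CPM in DMSO. The log2 fold change of 0.15 became -0.086 with library sizes left without TMM factors.

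Cers2 had the smallest p-value of the 30 genes, 139th of 11388. It encodes the ceramide synthase for very-long-chain acyl groups (ENSMUSG00000015714.12, chromosome 3, 95222395 to 95230910, plus strand), and its upstream sequence is the second shown above. Its counts were 158 and 189 in NEDD8i against 48 and 25 in DMSO, or 19.6 and 22.7 CPM against 6.86 and 4.53 CPM. Both NEDD8i libraries were well above both DMSO libraries, by more than either group's own spread. This gave 1.88 ± 0.37 in log2 units (SE, edgeR adjusted p = 0.0609), just short of the threshold. It was called by DESeq2 (adjusted p = 0.00605), and without DMSO replicate 1 (2.21, edgeR adjusted p = 0.000143) or DMSO replicate 2 (1.64, edgeR adjusted p = 0.00296). With no filter its edgeR adjusted p was 0.000469 and with the replicate number as a block 0.0347, while without NEDD8i replicate 1 or 2 it was 0.239 and 0.344. Over 13 other settings, the crossed block aside, it ran from 0.000143 to 0.344. Exons of Cers2 overlap those of Setdb1 on the other strand, which had 48 and 42 counts in NEDD8i against 71 and 38 in DMSO.

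The other ceramide synthases differed less between the groups. Cers3 (ENSMUSG00000030510.12, chromosome 7, 66393252 to 66473439, plus strand), the synthase that takes ultra-long chains and makes the precursors of acylceramides, had 25.7 and 40.6 CPM in NEDD8i against 18.3 and 19.6 CPM in DMSO. The groups did not overlap, and NEDD8i replicate 2 was the highest. The fit put the difference at 0.81 ± 0.33 log2 units (SE, edgeR adjusted p = 0.267) and 0.43 without NEDD8i replicate 2. Cers4, which in mouse skin is expressed in sebaceous glands and hair follicles, had 39.7 and 61.9 CPM in NEDD8i against 62.6 and 50.9 CPM in DMSO. The value of -0.16 (log2) turned to 0.14 without NEDD8i replicate 1.

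The acylceramide-forming pair went opposite ways in level. Abhd5, the coactivator of the transacylase, had 35.1 and 35.8 CPM in NEDD8i against 22.7 and 22.5 CPM in DMSO, with close replicates in both groups, and a difference of 0.65 ± 0.28 log2 units (SE, edgeR adjusted p = 0.296). Pnpla1, the transacylase that joins linoleic acid to the ceramide, had 15.8 and 14.8 CPM in NEDD8i against 23.4 and 17.9 CPM in DMSO. Its log2 fold change was estimated at -0.44 ± 0.32 (SE, edgeR adjusted p = 0.555). Neither pair of groups overlapped, and neither gene passed.

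**Figure D2:**
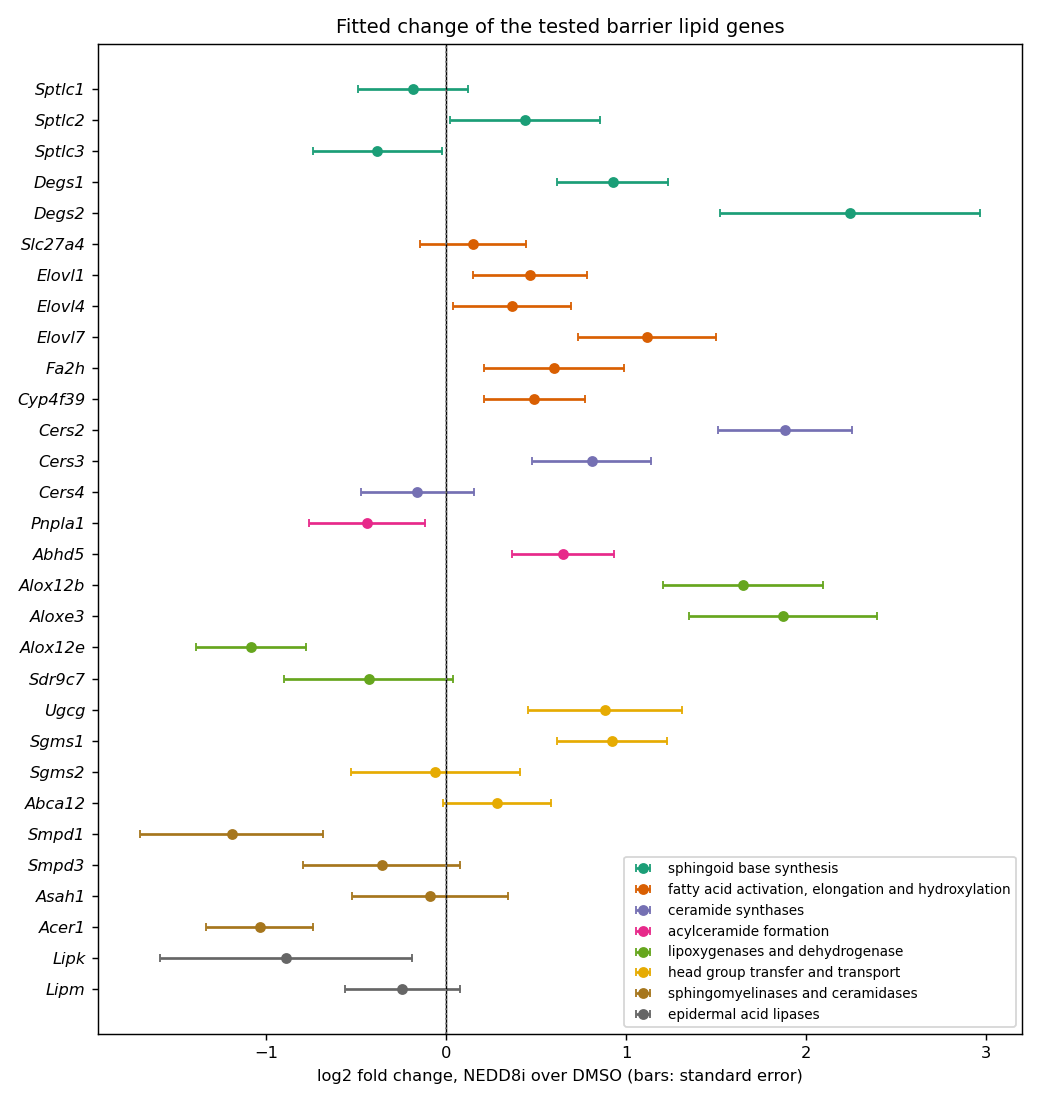
Log2 fold change of NEDD8i over DMSO for the 30 tested genes, with 1 row per gene and bars of 1 standard error, coloured by role; the dotted line is the median of all tested genes, 0.00. Degs2, Cers2, Aloxe3 and Alox12b lie above 1.5 and Smpd1, Alox12e and Acer1 below -1.

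The lipoxygenases split. Alox12b and Aloxe3, which act in sequence on the linoleic acid of acylceramides, were higher in both NEDD8i libraries, whereas Alox12e was lower in both. Alox12b (ENSMUSG00000032807.6, chromosome 11, 69047815 to 69060618, plus strand) had 133 and 135 counts in NEDD8i against 23 and 40 in DMSO, or 16.5 and 16.2 CPM against 3.29 and 7.24 CPM. The NEDD8i libraries were almost equal, and both lay above the higher DMSO library. In the fit it stood at 1.65 ± 0.44 on the log2 scale (SE, edgeR adjusted p = 0.128), and it was called without DMSO replicate 2 (2.33, edgeR adjusted p = 7.38e-05).

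Aloxe3 (ENSMUSG00000020892.11, 69016722 to 69039941, plus strand), the hydroperoxide isomerase that takes up the product of Alox12b, lies beside it on chromosome 11, with starts 31.1 kb apart. It had 57 and 44 counts in NEDD8i against 12 and 9 in DMSO, or 7.08 and 5.29 CPM against 1.72 and 1.63 CPM. No values overlapped, and the DMSO libraries were nearly equal. This gave 1.87 ± 0.52 in log2 units (SE, edgeR adjusted p = 0.134), between 1.67 and 2.05 with any 1 library left out.

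Alox12e (ENSMUSG00000018907.11, 70206436 to 70213454, minus strand), the epidermal 12-lipoxygenase of mice, starts 1196.7 kb from the start of Aloxe3 on the same chromosome. Its counts were 174 and 148 in NEDD8i against 335 and 197 in DMSO, or 21.6 and 17.8 CPM against 47.9 and 35.7 CPM. Both NEDD8i libraries were below both DMSO libraries. The fit put the difference at -1.09 ± 0.31 log2 units (SE, edgeR adjusted p = 0.137), with a call without DMSO replicate 2 (-1.26, edgeR adjusted p = 0.00304). Lipoxygenase genes are related in sequence, and the sources used here do not say how reads that fit several genes were counted.

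Alox8, the 8-lipoxygenase of mouse skin, was abundant in 1 library. It had 4 and 5 counts in NEDD8i against 105 and 3 in DMSO, so that DMSO replicate 1 held nearly all of its reads, and it was not tested in the fit of all 4 libraries. That library also carried the hair shaft markers given above, led by Tchh with 115 and 2158 counts in NEDD8i against 25617 and 83 in DMSO, and the part of hair RNA in the Alox8 value was not tested. Where DMSO replicate 2 was left out, it entered the test only through DMSO replicate 1, its high library, so its call there supports nothing. Per library it stood at 0.497 and 0.601 CPM in NEDD8i, against 15.01 and 0.543 CPM in DMSO. Sdr9c7, the dehydrogenase that follows Aloxe3, had 3.85 and 7.69 CPM in NEDD8i against 6.57 and 9.06 CPM in DMSO and overlapped between groups (log2 fold change -0.43, SE 0.47).

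Ceramide is then given a head group. Sgms1, the Golgi sphingomyelin synthase (ENSMUSG00000040451.19, chromosome 19, 32100127 to 32365912, minus strand), had 69.7 and 69.3 CPM in NEDD8i against 29.2 and 44.4 CPM in DMSO. The NEDD8i libraries were nearly equal and above both DMSO libraries. Its log2 fold change was estimated at 0.92 ± 0.31 (SE, edgeR adjusted p = 0.187), and it was called without DMSO replicate 2 (1.27, edgeR adjusted p = 0.00638). Sgms2, the plasma membrane enzyme, had 4.59 and 9.97 CPM in NEDD8i against 8.29 and 6.88 CPM in DMSO, so the groups overlapped. Its log2 fold change of -0.06 turned to 0.075 without DMSO replicate 1 and to 0.41 without NEDD8i replicate 1.

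Ugcg, the glucosylceramide synthase, had 14.2 and 25.3 CPM in NEDD8i against 13.7 and 7.61 CPM in DMSO. NEDD8i replicate 1 and DMSO replicate 1 were close, and the other libraries made the difference. In the fit it stood at 0.88 ± 0.43 on the log2 scale (SE, edgeR adjusted p = 0.355), and it was called without DMSO replicate 1 (1.37, edgeR adjusted p = 0.0227). Abca12, the transporter that loads glucosylceramide into lamellar granules, had 53.2 and 61.3 CPM in NEDD8i against 38.4 and 55.8 CPM in DMSO, with overlap and a log2 fold change of 0.28 (SE 0.30).

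Enzymes that break sphingolipids down had the opposite sign, with 0 of 4 positive, beside 49.9% of all tested genes, and 0 called. Acer1, the alkaline ceramidase most abundant in epidermis (ENSMUSG00000045019.5, chromosome 17, 57260490 to 57289126, minus strand), had 29.3 and 20.9 CPM in NEDD8i against 52.0 and 51.1 CPM in DMSO. Both NEDD8i values were below both DMSO values, which were almost equal. This gave -1.04 ± 0.30 in log2 units (SE, edgeR adjusted p = 0.141), and leaving out DMSO replicate 1 or DMSO replicate 2 gave a call at nearly the same value (-1.04, edgeR adjusted p = 0.0243, and -1.03, edgeR adjusted p = 0.0206). Smpd1, the acid sphingomyelinase that frees ceramide from sphingomyelin, had 60 and 94 counts in NEDD8i against 223 and 60 in DMSO, or 7.45 and 11.3 CPM against 31.9 and 10.9 CPM. DMSO replicate 1, where hair shaft markers were highest, stood alone, and the fitted value of -1.19 ± 0.51 log2 units (SE, edgeR adjusted p = 0.289) was -0.22 without it and -1.74 and called (edgeR adjusted p = 0.000109) without DMSO replicate 2.

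The neutral sphingomyelinase gene Smpd3 was likewise highest in DMSO replicate 1, with 8.69 and 16.3 CPM in NEDD8i against 20.6 and 11.4 CPM in DMSO. Its log2 fold change of -0.36 became 0.13 without that library and 0.05 without NEDD8i replicate 1. Asah1, the acid ceramidase of lysosomes, had 7.33 and 4.69 CPM in NEDD8i against 6.29 and 6.52 CPM in DMSO (log2 fold change -0.09, and 0.18 without NEDD8i replicate 2). Neither gene separated the groups, and exons of Smpd3 overlap those of Prmt7 on the other strand, which had 44 and 36 counts in NEDD8i against 40 and 17 in DMSO.

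The acid lipases of cornifying keratinocytes, which lie together on chromosome 19 within 114.4 kb, had few reads except for Lipm. Lipm had 19.0 and 23.9 CPM in NEDD8i against 21.7 and 29.2 CPM in DMSO (log2 fold change -0.24, and 0.0011 without DMSO replicate 2), and its exons overlap those of Ankrd22 on the other strand, with 251 and 196 counts in NEDD8i against 116 and 99 in DMSO. Lipk had 11 and 8 counts in NEDD8i against 14 and 13 in DMSO, a log2 fold change of -0.89 (SE 0.70). Lipn had 1 and 10 counts in NEDD8i against 3 and 0 in DMSO and was not tested, 0 counts in DMSO replicate 2 allowing up to 0.543 CPM by counting error.

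**Figure D3:**
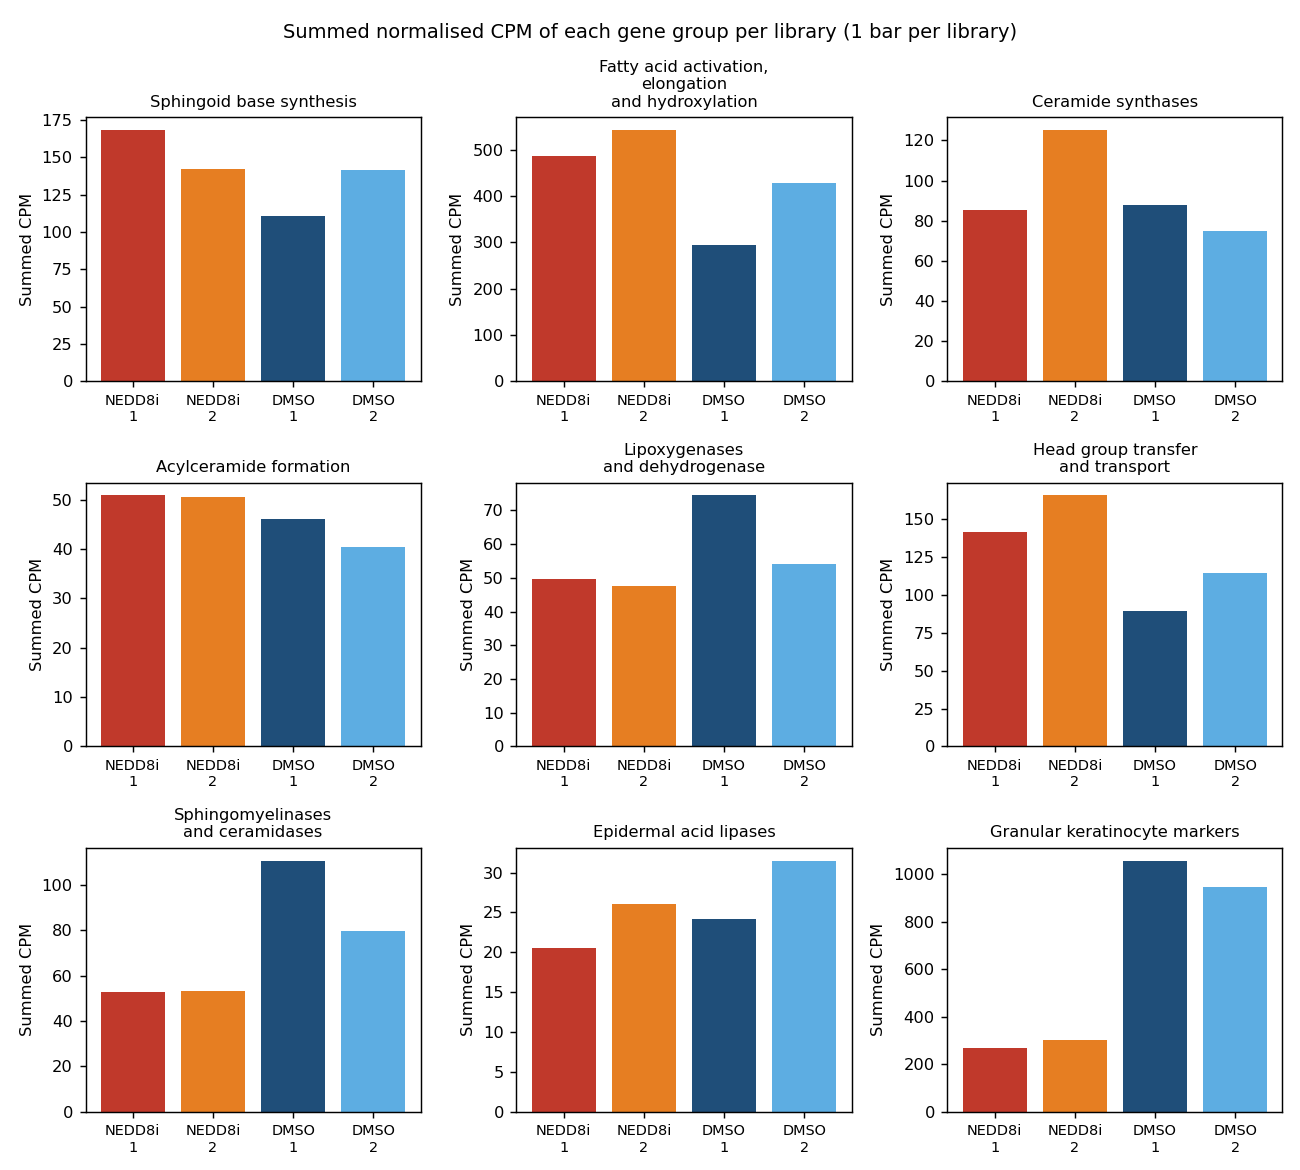
Summed scaled CPM of each role group and of the granular keratinocyte markers, 1 bar per library, with NEDD8i replicates left of DMSO replicates and every axis starting at 0. Sphingomyelinase and ceramidase genes sum to 52.8 and 53.2 CPM in NEDD8i and 111 and 79.9 CPM in DMSO, and granular markers to 269.6 and 303 against 1057 and 944 CPM.

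Summed by role, the bars of ceramide synthases and of epidermal acid lipases overlap between treatments and those of the other role groups do not, although those of sphingoid base synthesis nearly meet. Genes of fatty acid preparation summed to 486 and 542 CPM in NEDD8i against 293 and 428 CPM in DMSO, and those of head group transfer and transport to 142 and 166 against 89.6 and 115 CPM. Sphingomyelinases and ceramidases summed to 52.8 and 53.2 CPM in NEDD8i against 111 and 79.9 CPM in DMSO. Acylceramide formation summed to 50.9 and 50.6 CPM in NEDD8i against 46.2 and 40.4 CPM in DMSO, and the lipoxygenase group to 49.6 and 47.6 against 74.5 and 54.2 CPM, where Alox8 accounts for 15.01 CPM in DMSO replicate 1. All 32 genes together gave 1055 and 1153 CPM in NEDD8i against 836 and 965.3 CPM in DMSO, a description with no test. The fibroblast collagen genes Col1a1 and Col1a2 also lay higher in both NEDD8i libraries, with log2 fold changes of 2.11 and 2.35, and Dcn had -0.45. Col1a1 had 24 and 119 counts in NEDD8i against 15 and 10 in DMSO, and Col1a2 had 53 and 138 against 14 and 14. Col3a1 had 3.10, but it was tested through its NEDD8i libraries alone, so this lends no support. The part of fibroblast genes in these sums was not tested.

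The granular layer is where most of these lipids are made. Its protein markers summed to 269.6 and 303 CPM in NEDD8i against 1057 and 944 CPM in DMSO, and 2 of 8 listed markers (Lor and Flg2) passed as lower, with 0 higher. Of the other 6, Asprv1 had a log2 fold change of 0.52 and Cdsn one of -0.10, both with overlapping groups, and Flg, Hrnr, Kprp and Casp14 had values between -2.34 and -0.95. The barrier lipid genes held 3.91 and 3.81 counts for each count of these markers in NEDD8i, against 0.791 and 1.02 in DMSO. This ratio is taken within a library and does not depend on its scaling. The lipid genes already summed higher and the markers lower in both NEDD8i libraries, so its separation adds no support. The difference between the lists was not tested.

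The median absolute difference between replicates, in log2 CPM, was 0.31 in NEDD8i and 0.43 in DMSO for the 30 genes, against 0.35 and 0.50 over all tested genes. A difference of more than 1 log2 unit between replicates was seen for 1 of the 30 genes in NEDD8i and 4 in DMSO, against 1196 and 2306 of all 11388 tested genes.

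**Figure D4:**
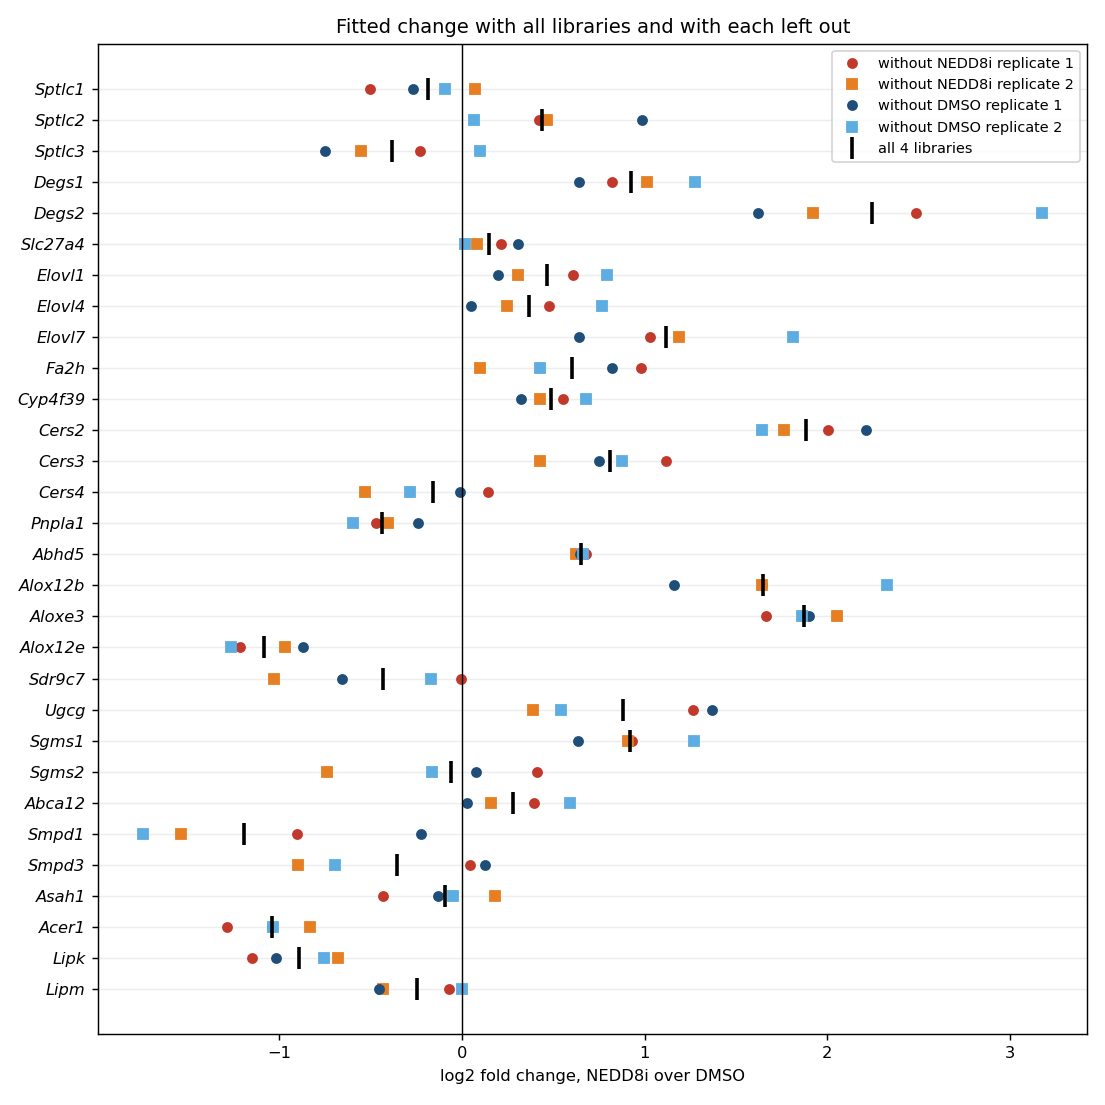
Log2 fold change of the 30 tested genes with all 4 libraries (black tick) and with each library left out (coloured symbols), 1 row per gene. Abhd5 stays between 0.62 and 0.68 and Aloxe3 between 1.67 and 2.05, while Smpd1 runs from -1.74 to -0.22 and Degs2 from 1.62 to 3.18.

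Leaving out 1 library moved the counts of calls among these genes. The fit lacking DMSO replicate 2 gave 10 calls (6 higher and 4 lower, of 31 tested, Degs2 and Alox8 among them) and that lacking DMSO replicate 1 gave 3 (2 higher and 1 lower), while without NEDD8i replicate 1 or NEDD8i replicate 2 there were 0. Over all genes the share called was 10.7% and 10.4% in the fits with 1 DMSO library and 0.368% and 0.387% in those with 1 NEDD8i library. A lone library is assumed in such a fit to vary like the other group, so these calls describe what 1 library does to the result.

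Among other sphingolipid genes, 0 of 23 tested passed, with a median log2 fold change of -0.30 and 4 (17.4%) at an unadjusted p under 0.05, near the 16.5% of all genes. Sgpp1, the phosphatase that returns sphingosine 1-phosphate to sphingosine, had 42.7 and 42.4 CPM in NEDD8i against 98.5 and 90.7 CPM in DMSO (-1.15 ± 0.27 log2 units, SE; edgeR adjusted p = 0.0935). Nipal4, an ichthyosis gene with a part in barrier lipid formation, had 34.0 and 27.3 CPM in NEDD8i against 13.4 and 12.9 CPM in DMSO (1.22 ± 0.31 log2 units, SE; edgeR adjusted p = 0.109). In neither gene did the groups overlap. The most abundant, the glycolipid transfer protein gene Gltp, had a log2 fold change of -0.09.

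Genes that supply fatty acids had 0 of 21 past the threshold, a median of -0.06 and 5 (23.8%) at an unadjusted p under 0.05, beside 16.5% of all genes. Scd2, a stearoyl-CoA desaturase, had 3.1 and 6.73 CPM in NEDD8i against 45.7 and 13.9 CPM in DMSO (-2.60 ± 0.61 log2 units, SE; edgeR adjusted p = 0.0967), its highest value in DMSO replicate 1. Dgat1, which makes triglyceride, had 24.0 and 23.1 CPM in NEDD8i against 6.57 and 11.6 CPM in DMSO (1.38 ± 0.37 log2 units, SE; edgeR adjusted p = 0.129). Of the most abundant genes, the fatty acid binding protein gene Fabp5 had 478.7 and 469.5 CPM in NEDD8i against 209 and 252 CPM in DMSO (log2 fold change 1.04), and the monoglyceride lipase gene Mgll was even (0.00).

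Regulators of barrier lipids had 0 of 13 past the threshold, a median of 0.05 and 5 (38.5%) at an unadjusted p under 0.05, where 16.5% of all genes were. Grhl3, a grainyhead-like factor needed for barrier formation in mice, had 19.7 and 21.0 CPM in NEDD8i against 7.43 and 5.43 CPM in DMSO (1.66 ± 0.36 log2 units, SE; edgeR adjusted p = 0.0732). Rxra, the retinoid X receptor that pairs with PPARs, had 52.8 and 57.1 CPM in NEDD8i against 92.6 and 146 CPM in DMSO (-1.12 ± 0.32 log2 units, SE; edgeR adjusted p = 0.138). The groups overlapped for neither. Klf4 had a log2 fold change of 0.27 and Rora, a nuclear receptor, one of -0.62, and Pparg had 0 counts in 3 libraries and 1 in DMSO replicate 2.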

How the data were processed

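The deposited table holds raw, whole-number counts of reads for every gene, with exon coordinates and summed exon length, an other value that was not used; STAR, featureCounts and DESeq2 are named, without versions, in the submitters' processing notes. QuantSeq 3′ FWD libraries were made, per the labels' protocols. The notes name GRCm38 and GRCm39; only 2.7% of 52029 matched genes started where GENCODE M21 places them on GRCm38, so gene coordinates are those of the table, taken to be GRCm39. The sources used here do not say whether counting used strand. All 4 columns matched a sample by title, and 0 columns were left unused. No 2 libraries were duplicates (chi-square per degree of freedom 24.1 or more).

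Counts were tested in R 4.3.3 with edgeR 4.0.16: filterByExpr defaults (minimum count 10, minimum total 15), TMM, the robust quasi-likelihood F test on group alone, Benjamini-Hochberg adjustment over 11388 genes and a threshold of 0.05. The standard error is the size of the log2 fold change over the square root of F. CPM uses TMM-scaled totals of tested genes, and the floor of 3 counts is 0.36 to 0.543 CPM. Intervals and floors cover counting error only. Alternatives were DESeq2 1.42.0, limma 3.58.1 (voom), RLE or no scaling factors, no filter, a fixed filter (10 counts and 1 CPM in at least 2 libraries), a non-robust fit, removal of 3 ribosomal RNA genes, a replicate block and each library left out; a crossed block was chosen after the data had been seen. Only the main edgeR fit was first tested on simulated counts, and the alternatives were not. It called 4%, 52.1% and 88.9% of the genes given a change of 1, 2 and 3 log2 units. An absent call therefore does not mean an absent change of 1 log2 unit. The simulated counts took their spread from its trend over expression level and held no outlying library, so these shares may not hold for the real libraries.

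The members and lists were chosen with earlier results of these data known. The 10 members of smallest p were given full statistics, and from each of 3 pathway lists the 2 genes of smallest p and the 2 most abundant were named. Overlapping genes, within-library ratios and the promoters shown were chosen after values were seen. Promoter sequences are RefSeq's on GRCm38.p6.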

Additional observations from a re-analysis of the deposited data

How the results depend on the processing

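Of 390 recomputed log2 fold changes of the 30 tested genes over 13 alternatives, 380 kept their sign, 17 became calls and 22 genes never turned. Most of the 17 came from the fits with 1 DMSO library, where the share called over all genes also rose. The 17 include the Degs2 call, which supports nothing. Without TMM factors, which moved the median of all genes to -0.22, Slc27a4 turned to -0.086. With 1 library left out, signs turned for 7 genes, whose values ran from -0.50 to 0.075 (Sptlc1), -0.75 to 0.10 (Sptlc3), -0.53 to 0.14 (Cers4), -0.74 to 0.41 (Sgms2), -0.90 to 0.13 (Smpd3), -0.43 to 0.18 (Asah1) and -0.45 to 0.0011 (Lipm); the cause was not tested. Over all genes 89 were called, against 414 by DESeq2, 703 with no filter (of 23633 tested), 47 without TMM factors and 48 without the robust option. Barrier lipid calls numbered 1 by DESeq2 (Cers2), beside 3.64% of all tested genes, and 4 with no filter, beside 2.97%. Those 4 were Elovl7, Cers2 and Alox12b as higher and Alox8 as lower. The Alox8 call rests on 1 library, DMSO replicate 1, and supports nothing. Other sphingolipid, fatty acid supply and regulator genes gave 1, 2 and 2 calls by DESeq2 and 2, 3 and 3 with no filter. Leaving out 1 library gave 44 to 1358 calls over all genes, 0 to 10 among barrier lipid genes, 0 to 5 among other sphingolipid genes, 0 to 6 among fatty acid supply genes and 0 to 5 among regulators. Depth limits Lipn, Lipk and Degs2 most, with fewer than 40 counts in every library.

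Same-numbered samples did not deviate together (correlation across genes -0.13), which does not settle whether the numbers pair the samples, and the labels do not say what a number stands for. With the replicate number as a block there were 285 calls over all genes, 2.5% of those tested. Of these, 1 was among barrier lipid genes (Cers2, edgeR adjusted p = 0.0347), 1 among other sphingolipid genes and 2 among regulators. Fatty acid supply genes stayed at 0. The crossed pairing, added after seeing the data, gave 483 calls over all genes, 4.24% of those tested. Among them were 2 barrier lipid, 0 other sphingolipid, 1 fatty acid supply and 2 regulator genes.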

Other observations

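Ratios of 2 barrier lipid genes within a library do not depend on how libraries are scaled, and 3 such ratios were taken after the values had been seen, so they are descriptions with no test. Alox12b held 0.764 and 0.912 counts for each count of Alox12e in NEDD8i replicates 1 and 2, against 0.0687 and 0.203 in DMSO replicates 1 and 2. Cers2 held 0.494 and 0.367 counts for each count of Cers4 in NEDD8i, against 0.11 and 0.089 in DMSO. Degs1, which completes ceramide, held 2.75 and 3.3 counts for each count of Acer1, which hydrolyses it, in NEDD8i, against 0.602 and 0.933 in DMSO. In each of the 3 ratios both NEDD8i libraries lay above both DMSO libraries. Each pair set a gene with a positive log2 fold change over one with a negative value, so this adds no support.

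Sebaceous gland markers had 2 of 8 at an unadjusted p under 0.05, both with a positive log2 fold change (25%, beside 8.62% of all tested genes), and 0 past the adjusted threshold in edgeR. Awat1, a wax synthase of the gland, had 78 and 91 counts in NEDD8i against 20 and 16 in DMSO (log2 fold change 1.83, edgeR adjusted p = 0.0866). Of the 8 markers 6 had a positive log2 fold change and 2 a negative one, Scd3 (-0.22) and Soat1 (-0.03). Soat1 was highest in DMSO replicate 1, and Awat2 (0.25) overlapped between the groups. Of 6 adipocyte markers, Adipoq, Plin1, Cidec and Lep had too few reads to be tested. Car3 had 43 and 19 counts in NEDD8i against 18 and 16 in DMSO, and Cfd had 29 and 12 against 10 and 11; neither passed in edgeR.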
